A study of Homo sapiens with 9 samples.

Results

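Transcripts of 7 enzymes that make or use sorbitol, fructose and related sugars were followed in A549 cells, a long-established human line from a lung adenocarcinoma: AKR1B1, SORD, AKR1A1, KHK, TKFC, GLYCTK and DCXR. They were chosen by name, as the rows of the deposited count table whose gene ID carries 1 of these symbols, and make up 7 of the 57905 gene IDs in the table. All 7 were among the 16916 genes with enough counts to be tested. RNA was sequenced in 9 libraries, and each of 3 groups has 3. A short hairpin RNA (shRNA, which directs the breakdown of a matching transcript) targeted AKR1B1 in the first group (shAKR1B1) and SORD in the second (shSORD). The third group is the control, titled plko and given as scrambled controls in the treatment label, which leaves unclear what its vector encoded. All cells were grown in medium with 5% serum.

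The series speaks of biological replicates, but no label says whether the libraries of a group came from separate transductions or cultures, so the p-values below rest only on how far these libraries differ, which may be technical. Each target had 1 shRNA label and both knockdowns were set against the same 3 plko libraries, so an effect of 1 hairpin or of 1 control population cannot be told apart from the group. In bulk RNA, fewer cells with a transcript and less transcript per cell cannot be told apart either. Total counts ran from 32436524 to 43044456 per library. Levels are given as CPM, counts per 1000000 counts of the library after scaling for library composition. The libraries of shSORD differed more among themselves (chi-square per gene 13.2 to 27.7, highest between libraries 2 and 3) than those of shAKR1B1 (3.45 to 6.49) and plko (2.43 to 6.01). The summed level of 6 epithelial and A549 markers (KRT8, KRT18, KRT19, CDH1, EPCAM and NQO1) lay at 13360 to 14035 CPM in shAKR1B1, 10807 to 12626 CPM in shSORD and 8575 to 8717 CPM in plko. KRT8, KRT18 and NQO1 make up most of this sum, and the markers did not all move alike. NQO1 averaged 2187, 1782 and 1873 CPM in shAKR1B1, shSORD and plko. In the same order CDH1 averaged 301, 312 and 141 CPM, EPCAM 10.5, 15.6 and 3.06 CPM and KRT19 13.6, 15.9 and 5.90 CPM. The part of these differences in the results below was not tested. Of 10 markers of blood, endothelial, stromal and liver cells, 7 had at most 10 counts in every library. The sum of the 10 stayed between 0.858 and 1.47 CPM in shAKR1B1, 1.40 and 1.68 CPM in shSORD and 0.254 and 0.690 CPM in plko. The others were PDGFRB, LUM and ALB. In shAKR1B1, shSORD and plko, PDGFRB had 1 to 4, 16 to 46 and 5 to 11 counts. In the same order LUM had 4 to 12, 14 to 22 and 0 to 2. ALB had 16 to 22 in shAKR1B1, 1 to 5 in shSORD and 1 in each plko library. Of 8 alveolar markers, 4 (SFTPA1, SFTPA2, SFTPB and NKX2-1) had at most 10 counts in every library, and SFTPB was listed at 0 in all of them. SFTPC and LAMP3 were low, with at most 15 and 18 counts. ABCA3 was present at 50.1, 66.0 and 55.2 CPM in shAKR1B1, shSORD and plko. AGER stood at 3.36, 4.63 and 2.71 CPM in the same order.

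The polyol pathway turns glucose into fructose without the usual entry through hexokinase. Aldose reductase (AKR1B1) reduces glucose to sorbitol with NADPH, and SORD, sorbitol dehydrogenase, uses NAD to oxidise sorbitol into fructose. Ketohexokinase (KHK) then phosphorylates fructose, and the glyceraldehyde that comes from its product can be phosphorylated by triokinase (TKFC) or oxidised to glycerate, the substrate of glycerate kinase (GLYCTK). AKR1A1, aldehyde reductase, is a relative of AKR1B1 that takes glucuronate among other aldehydes, and DCXR, dicarbonyl and L-xylulose reductase, makes xylitol in the glucuronate route. The pathway is best known from diabetic lens and nerve, where sorbitol accumulates, and from the kidney, where sorbitol serves as an osmolyte.

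GLYCTK, the enzyme that was higher in both knockdowns, AKR1B1, the most abundant of the 7, and DCXR, which was lower in both, are shown by the 300 bases around their start sites, from 250 before to 50 after. The sequences are from RefSeq on GRCh38.p14, whereas the counts were made on GRCh37, and the table used holds 5 of the 7 enzymes (AKR1A1, GLYCTK, AKR1B1, TKFC and DCXR). It lists 2 starts for AKR1B1, of which 1 is shown. Each runs 5′ to 3′ along the gene. They lie at chr3:52289816-52290115 on the plus strand for GLYCTK, chr7:134459051-134459350 on the minus strand for AKR1B1 and chr17:82037648-82037947 on the minus strand for DCXR. Capitals mark matches on either strand to the CCAAT box (CCAAT), the GC box (GGGCGG) and an HNF1-like motif (GTNAAT followed, after 1 base of any kind, by ATTAAC).
GLYCTK: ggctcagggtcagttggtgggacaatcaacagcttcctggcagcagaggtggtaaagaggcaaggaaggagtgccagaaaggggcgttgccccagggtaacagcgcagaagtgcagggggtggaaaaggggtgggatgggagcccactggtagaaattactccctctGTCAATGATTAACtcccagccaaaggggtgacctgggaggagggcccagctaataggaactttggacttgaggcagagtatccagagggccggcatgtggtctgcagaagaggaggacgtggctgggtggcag
AKR1B1: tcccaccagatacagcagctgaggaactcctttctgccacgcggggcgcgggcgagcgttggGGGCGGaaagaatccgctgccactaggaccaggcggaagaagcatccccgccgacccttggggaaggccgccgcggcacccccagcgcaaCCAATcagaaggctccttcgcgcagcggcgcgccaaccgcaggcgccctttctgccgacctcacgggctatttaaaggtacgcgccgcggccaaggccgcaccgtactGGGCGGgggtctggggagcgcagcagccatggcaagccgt
DCXR: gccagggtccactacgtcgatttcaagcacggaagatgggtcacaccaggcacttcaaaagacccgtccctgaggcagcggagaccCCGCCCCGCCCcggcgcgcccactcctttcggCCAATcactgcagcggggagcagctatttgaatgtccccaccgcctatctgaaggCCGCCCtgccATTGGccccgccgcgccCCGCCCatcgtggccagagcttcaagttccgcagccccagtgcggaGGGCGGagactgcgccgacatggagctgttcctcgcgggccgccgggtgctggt
Also searched were the TATA box (TATAAA), the E-box (CACGTG) and the core of the antioxidant response element (TGACNNNGC). GLYCTK held no match to the CCAAT box, the GC box or these 3, and held the HNF1-like motif from 83 to 71 bases before its start. That motif's letters were picked after the GLYCTK sequence had been seen, and 10 of 35116 RefSeq promoters of this length (0.0285%) hold it. HNF1 factors are homeodomain proteins best known from liver, kidney and gut. The AKR1B1 window held 1 CCAAT box and 2 GC boxes, and the DCXR window 2 CCAAT boxes and 5 GC boxes, 2 of them overlapping by 1 base. Across all promoters of the table, 34.6% held CCAAT, 45.0% GGGCGG, 11.5% TATAAA, 7.26% CACGTG and 13.3% TGACNNNGC. A match describes letters and not a bound site.

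Both target transcripts were lowered in the cells labelled for them, and each was also lower, to a smaller degree, in cells with the hairpin against the other. AKR1B1 (ENSG00000085662, chromosome 7) had 146, 148 and 167 CPM in shAKR1B1, 945, 1109 and 1135 CPM in shSORD and 1456, 1395 and 1397 CPM in plko. The groups did not overlap: every shAKR1B1 library lay below every shSORD library, and every shSORD library below every plko library. AKR1B1 averaged 154 ± 11.7 CPM in shAKR1B1 against 1416 ± 34.7 CPM in plko (SD, n = 3 each), or 10.9% of the control level. The log2 fold change was -3.20 (SE 0.0754, edgeR quasi-likelihood adjusted p 5.4e-13), a fall matched or passed by 0.231% of the genes tested. With shSORD, AKR1B1 averaged 1063 ± 103 CPM (SD, n = 3), 75.1% of the control level, at a log2 fold change of -0.41 (95% interval -0.56 to -0.27, edgeR adjusted p 0.000131).

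SORD (ENSG00000140263, chromosome 15) had 30.4, 30.2 and 31.0 CPM in shAKR1B1, 8.68, 8.997 and 8.18 CPM in shSORD and 44.1, 43.04 and 41.7 CPM in plko. Its groups were again wholly apart, here with shSORD lowest and shAKR1B1 between shSORD and plko. Against plko, SORD stood at 20.1% of the control level with shSORD (log2 fold change -2.32, SE 0.0666, edgeR adjusted p 3.65e-12), on 326 to 369 counts per shSORD library. With shAKR1B1 it stood at 71.1% of the control level (log2 fold change -0.49, 95% interval -0.62 to -0.36, edgeR adjusted p 6.43e-06). Of all tested genes, 17.1% fell at least as far as AKR1B1 did with shSORD, and 14.6% at least as far as SORD did with shAKR1B1.

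How far counts could be shared with near copies was read from GENCODE 29 transcripts. SORD has a pseudogene, SORD2P, that is 99.1% identical over 2317 aligned bases, and 33.1% of the 50-base windows of the SORD transcript also occur in SORD2P. AKR1B1 differs far more from AKR1B10, a neighbouring reductase better known for retinal and other carbonyls, with 78.5% identity over 873 aligned bases and no 50-base window in common. Only its processed pseudogenes held windows of AKR1B1, 4.78% of them, and the other 5 enzymes shared no window with another gene. The stretches below show that contrast, with capitals at the 21 of 90 positions where AKR1B1 (coding bases 31 to 120) and AKR1B10 differ; the SORD stretch (coding bases 66 to 155) is the same letter for letter in SORD2P.
AKR1B1: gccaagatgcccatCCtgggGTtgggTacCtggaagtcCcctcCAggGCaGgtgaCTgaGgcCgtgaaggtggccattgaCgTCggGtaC
AKR1B10: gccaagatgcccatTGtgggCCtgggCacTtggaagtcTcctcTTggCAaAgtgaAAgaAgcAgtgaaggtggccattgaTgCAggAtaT
SORD: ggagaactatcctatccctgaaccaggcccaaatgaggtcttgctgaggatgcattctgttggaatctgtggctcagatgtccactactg
SORD2P itself had 30 to 41 counts in shAKR1B1, 8 to 11 in shSORD and 32 to 38 in plko. Its fall with shSORD (log2 fold change -2.01, edgeR adjusted p 6.84e-06) was close in size to that of SORD, and it was not called with shAKR1B1 (-0.05, edgeR adjusted p 0.834). How reads that fit both were assigned is not given in the sources used here, so the 2 rows may not be independent. AKR1B10, in contrast to AKR1B1, was higher with shAKR1B1, at 6762 ± 153 CPM in shAKR1B1, 4355 ± 107 CPM in shSORD and 4947 ± 37.0 CPM in plko (SD, n = 3 each). Its log2 fold changes against plko were 0.45 with shAKR1B1 (edgeR adjusted p 4.57e-07) and -0.18 with shSORD (edgeR adjusted p 0.00197).

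**Figure D1:**
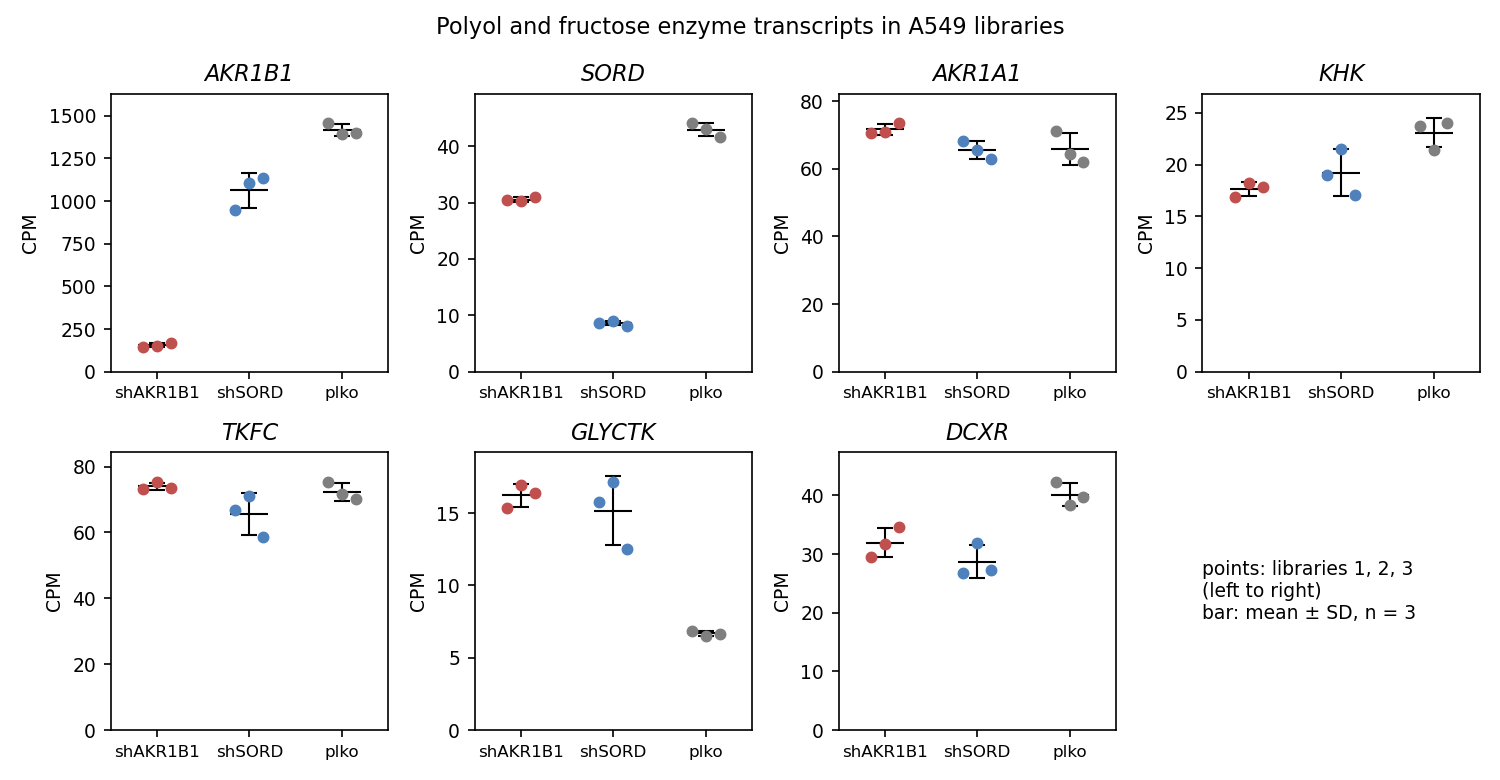
Level of each enzyme transcript in CPM (linear axes from 0) in shAKR1B1, shSORD and plko libraries; points are single libraries and bars are the mean ± SD of 3. AKR1B1 and SORD are lowest in the cells with their own hairpin, and GLYCTK is higher in all 6 knockdown libraries (12.5 to 17.2 CPM) than in the plko libraries (6.52 to 6.88 CPM).

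The clearest change outside the targets was in GLYCTK (ENSG00000168237, chromosome 3), the kinase that brings glycerate into the lower part of glycolysis. It had 15.4, 16.9 and 16.4 CPM in shAKR1B1, 15.8, 17.2 and 12.5 CPM in shSORD and 6.88, 6.52 and 6.67 CPM in plko. The 6 knockdown libraries all lay above the 3 plko libraries, and library 3 of shSORD was the lowest of the 6. The counts behind these levels were 502 to 708 in shAKR1B1, 499 to 704 in shSORD and 246 to 262 in plko. GLYCTK was 2.43-fold higher with shAKR1B1 (95% interval 2.08 to 2.84, edgeR adjusted p 1.05e-07) and 2.27-fold higher with shSORD (1.94 to 2.65, edgeR adjusted p 3.26e-07). Of all tested genes, 5.98% were raised at least as much with shAKR1B1 and 6.30% with shSORD. Its promoter is the one printed above without a CCAAT or GC box. GLYCTK-AS1, on the opposite strand over 14.3% of its exon bases, was listed at 0 counts in every library, and WDR82, which overlaps 1.46%, was lower in both knockdowns (log2 fold change -0.19 in each).

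KHK (ENSG00000138030, chromosome 2), which commits fructose to its own pathway, was lower in both knockdowns by a small amount. It had 16.9, 18.2 and 17.8 CPM in shAKR1B1, 19.0, 21.6 and 17.1 CPM in shSORD and 23.8, 21.5 and 24.0 CPM in plko. All shAKR1B1 libraries lay below plko, whereas library 2 of shSORD passed the lowest plko library. The fall was 1.31-fold with shAKR1B1 (log2 fold change -0.39, 95% interval -0.57 to -0.20, edgeR adjusted p 0.00128) and 1.20-fold with shSORD (-0.26, -0.44 to -0.08, edgeR adjusted p 0.0153). The shSORD call is fragile: it was lost with upper quartile scaling (-0.19, edgeR adjusted p 0.0732) and without plko library 1, plko library 3, shSORD library 1 or shSORD library 3 (edgeR adjusted p 0.0546, 0.0866, 0.0655 and 0.0724). CGREF1 lies on the opposite strand over 23.8% of KHK's exon bases and moved otherwise, with a log2 fold change of 0.38 with shAKR1B1 (edgeR adjusted p 0.00142) and -0.13 with shSORD (edgeR adjusted p 0.205). The kit marks strand, but the strand setting of the counting is not given in the sources used here.

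TKFC (ENSG00000149476, chromosome 11), which phosphorylates glyceraldehyde and dihydroxyacetone, was not called in either knockdown. It had 73.3, 75.2 and 73.4 CPM in shAKR1B1, 66.9, 71.0 and 58.6 CPM in shSORD and 75.4, 71.6 and 70.2 CPM in plko. The groups overlapped in both comparisons with plko. Its log2 fold change was 0.03 with shAKR1B1 (95% interval -0.11 to 0.18, edgeR adjusted p 0.710) and -0.14 with shSORD (-0.29 to 0.00, edgeR adjusted p 0.0827). Leaving out shSORD library 2 turned the shSORD value into a call (-0.21, edgeR adjusted p 0.0084). CYB561A3 on the opposite strand covers 11.5% of TKFC's exon bases and was lower in both knockdowns, at log2 fold changes of -0.64 and -0.65 with shAKR1B1 and shSORD. DDB1, also on the opposite strand, covers 6.40% and was lower in both as well (-0.22 and -0.13, edgeR adjusted p 0.00170 and 0.0388). AP003108.3 on the same strand covers 5.36%, and its counts were not analysed here.

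Of the other reductases, DCXR was lower in both knockdowns and AKR1A1 was not called in either. DCXR (ENSG00000169738, chromosome 17) had 29.6, 31.7 and 34.5 CPM in shAKR1B1, 26.8, 31.96 and 27.4 CPM in shSORD and 42.3, 38.4 and 39.6 CPM in plko. Every knockdown library lay below every plko library. The fall was 1.25-fold with shAKR1B1 (log2 fold change -0.33, 95% interval -0.50 to -0.16, edgeR adjusted p 0.00281) and 1.40-fold with shSORD (-0.48, -0.65 to -0.31, edgeR adjusted p 0.000128). DCXR's exons overlap no other gene in GENCODE 29, and neither do those of AKR1B1 or AKR1A1.

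AKR1A1 (ENSG00000117448, chromosome 1) had 70.7, 70.8 and 73.4 CPM in shAKR1B1, 68.1, 65.6 and 62.9 CPM in shSORD and 71.1, 64.5 and 61.9 CPM in plko. Library 1 of plko was above 2 of the 3 shAKR1B1 libraries, so the groups overlapped. The log2 fold change was 0.12 with shAKR1B1 (95% interval -0.01 to 0.25, edgeR adjusted p 0.103) and -0.01 with shSORD (-0.14 to 0.13, edgeR adjusted p 0.939). With shAKR1B1 it was called higher under upper quartile scaling (0.18, edgeR adjusted p 0.0203), a stricter expression filter (0.16, 0.0407), a fit of the 2 groups alone (0.14, 0.0115), without plko library 1 (0.18, 0.0377) and without shSORD library 3 (0.14, 0.0326). AKR1B1, its closest relative among the 7, shares 70.1% identity with it over 311 aligned bases.

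Counted together, 1 enzyme (GLYCTK) rose and 4 fell with shAKR1B1, in an experiment in which 27.8% of tested genes rose and 29.6% fell. With shSORD likewise 1 rose and 4 fell, where 27.5% of tested genes rose and 29.0% fell. The 5 called enzymes were the same in both comparisons and moved the same way, but both comparisons use the same plko libraries and include the targeted genes. The groups did not overlap for 5 enzymes with shAKR1B1, against 69.1% of tested genes, and for 4 with shSORD, against 60.1%. Counting both directions, 5 of the 7 were called in each comparison, where 57.4% of all tested genes were called with shAKR1B1 and 56.5% with shSORD, so the number of calls by itself does not set the enzymes apart. The median log2 fold change of the 7 was -0.33 with shAKR1B1 and -0.26 with shSORD, while that of all tested genes was -0.00 in each. The medians of the 7 count the targeted AKR1B1 and SORD, so they do not show a shift of the other enzymes. For AKR1A1, KHK, TKFC, GLYCTK and DCXR the log2 fold changes were 0.12, -0.39, 0.03, 1.28 and -0.33 with shAKR1B1. With shSORD they were -0.01, -0.26, -0.14, 1.18 and -0.48.

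**Figure D2:**
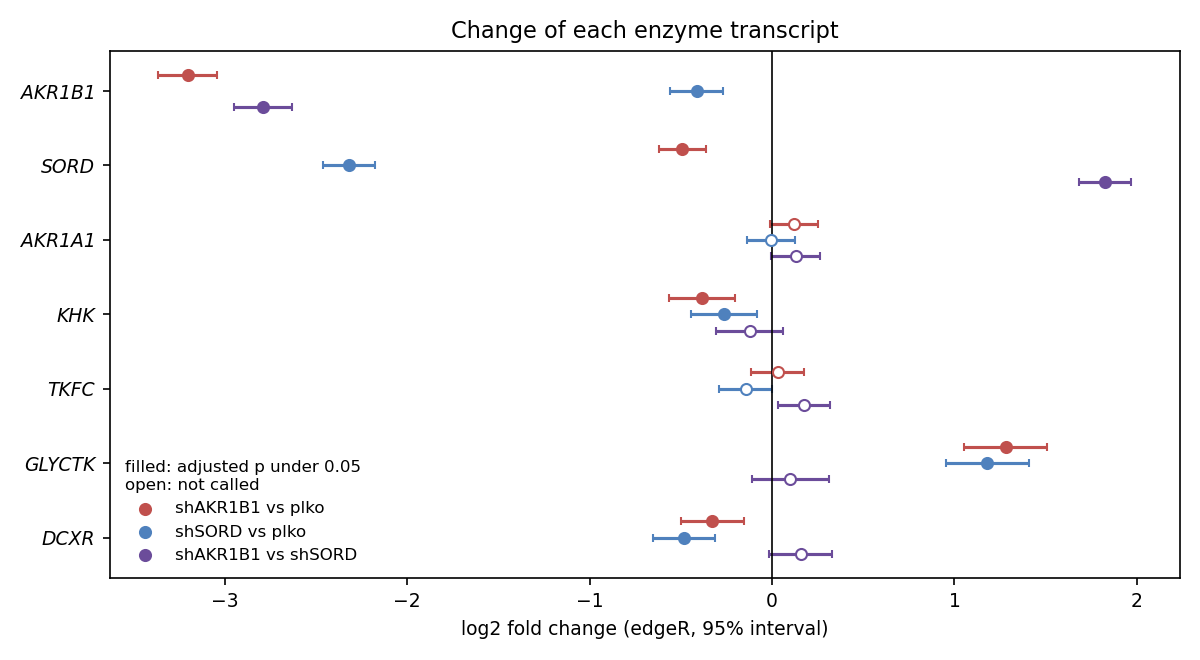
Log2 fold change of each enzyme (x axis, with 95% intervals from edgeR) for shAKR1B1 against plko, shSORD against plko and shAKR1B1 against shSORD; filled points have an adjusted p under 0.05. AKR1B1 (-3.20) and SORD (-2.32) under their own hairpins are farthest from 0, GLYCTK is the only enzyme right of 0 with filled points against plko, and between the knockdowns only AKR1B1 and SORD are filled.

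The knockdowns were then set against each other, which leaves the plko libraries out of the contrast. Only the 2 targeted enzymes were called: AKR1B1 was 6.91-fold lower in shAKR1B1 than in shSORD (log2 fold change -2.79, edgeR adjusted p 4.74e-12), and SORD was 3.54-fold higher (1.83, edgeR adjusted p 8.67e-11). That is 1 enzyme higher and 1 lower, where 15.5% of tested genes were higher and 15.1% lower. For the 5 others the intervals of the difference were 0.00 to 0.26 for AKR1A1, -0.30 to 0.06 for KHK, 0.03 to 0.32 for TKFC, -0.11 to 0.31 for GLYCTK and -0.02 to 0.33 for DCXR, on the log2 scale. For GLYCTK the log2 difference of 0.10 (edgeR adjusted p 0.474) hung on shSORD library 3, without which it was -0.02.

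TKFC came closest to a call, at a log2 difference of 0.18 (edgeR adjusted p 0.0619), with all shAKR1B1 libraries above all shSORD libraries. Libraries of the 2 knockdowns that carry the same number deviated together, and with the library number as a block TKFC was called higher (0.18, edgeR adjusted p 0.0385), which makes 2 enzymes higher. That block was fitted on all 9 libraries; fitted on the 6 knockdown libraries alone, an alternative added after seeing the data, it gave TKFC 0.17 (edgeR adjusted p 0.0560) and no call, which leaves 1 enzyme higher. Leaving out shSORD library 2 gave calls for TKFC (0.24, edgeR adjusted p 0.00705) and DCXR (0.24, 0.0173), and leaving out shSORD library 3 gave a call for KHK (-0.20, 0.0446). The groups did not overlap for 4 enzymes (AKR1B1, SORD, AKR1A1 and TKFC), against 40.1% of tested genes.

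To compare levels between genes, CPM was divided by the merged exon length in kilobases from GENCODE 29. In plko, AKR1B1 stood far above the rest at 387 ± 9.49 CPM per kilobase (SD, n = 3). DCXR (21.1 ± 1.04) and AKR1A1 (21.1 ± 1.52) followed with overlapping libraries, then TKFC (8.90 ± 0.332), KHK (7.54 ± 0.461), SORD (6.97 ± 0.193) and GLYCTK (2.22 ± 0.0589), all in CPM per kilobase. KHK and SORD were next to each other with overlapping libraries, and at the other steps of this order the libraries of neighbours did not overlap. Of the pair of enzymes that define the polyol pathway, the reductase thus had the highest level per length of the 7 and the dehydrogenase the second lowest.

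In shAKR1B1, AKR1B1 was still the most abundant of the 7, at 42.0 ± 3.20 CPM per kilobase, with AKR1A1 next at 23.0 ± 0.501. There SORD (4.96 ± 0.0668 CPM per kilobase) was lowest and GLYCTK (5.39 ± 0.262) was above it, the reverse of their order in plko. In shSORD, AKR1B1 stood at 290 ± 28.2 and SORD at 1.40 ± 0.0671 CPM per kilobase, below GLYCTK at 5.03 ± 0.793. AKR1B1 made up 39.3% ± 1.15 of the summed CPM per kilobase of the 7 in shAKR1B1, 83.6% ± 1.78 in shSORD and 85.1% ± 0.282 in plko (SD, n = 3 each).

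**Figure D3:**
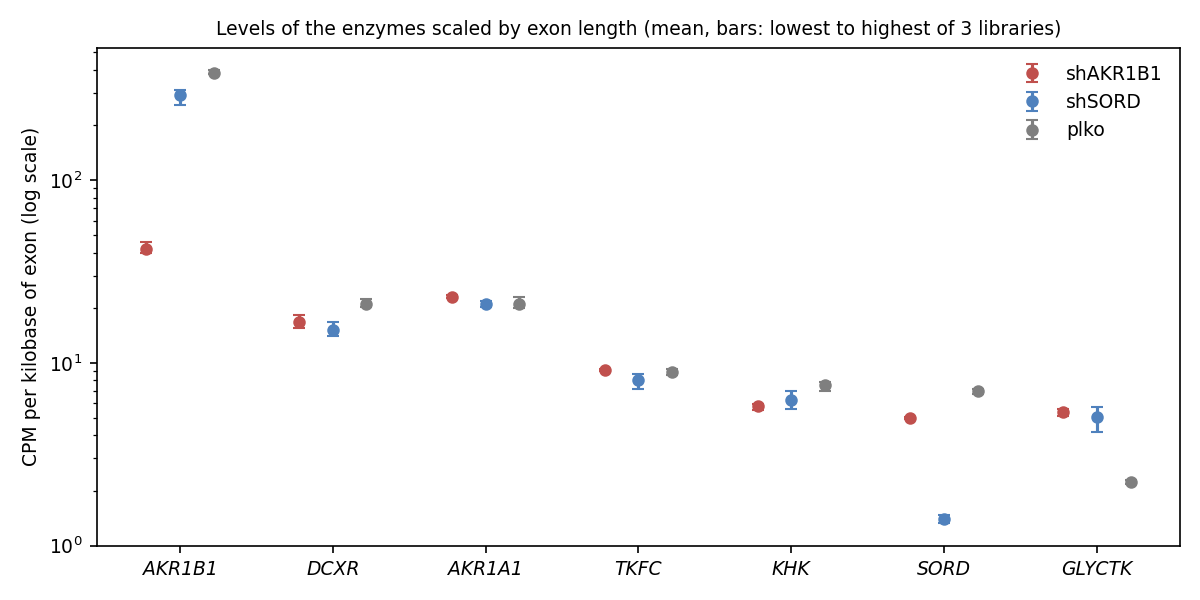
Mean level of the 7 enzymes in CPM per kilobase of exon (log axis) in shAKR1B1, shSORD and plko; bars run from the lowest to the highest of 3 libraries. AKR1B1 is highest in every group, 42.0 in shAKR1B1, 290 in shSORD and 387 in plko, and GLYCTK, lowest in plko at 2.22, passes SORD in both knockdowns.

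The balance of AKR1B1 to SORD moved in opposite directions. The ratio of their CPM per kilobase was 8.08, 8.25 and 9.08 in the shAKR1B1 libraries, 183, 207 and 234 in shSORD and 55.6, 54.5 and 56.4 in plko. The 3 groups did not overlap, with shAKR1B1 below and shSORD above plko, directions that the choice of targets sets. With the longest transcript in place of merged exons the mean ratio was 12.8, 315 and 83.9 in shAKR1B1, shSORD and plko.

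Further along, the ratio of TKFC to GLYCTK, the kinases of glyceraldehyde and of glycerate, was 1.69 ± 0.0664 in shAKR1B1, 1.61 ± 0.107 in shSORD and 4.01 ± 0.0960 in plko (SD, n = 3 each). Every knockdown library was at or below 1.77 and every plko library at or above 3.90. The ratio of SORD to KHK, the step that makes fructose and the step that uses it, was 0.861 ± 0.0339 in shAKR1B1, 0.224 ± 0.0154 in shSORD and 0.927 ± 0.0668 in plko. Here shAKR1B1 and plko overlapped. These ratios are descriptions of transcript levels and were not tested.

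**Figure D4:**
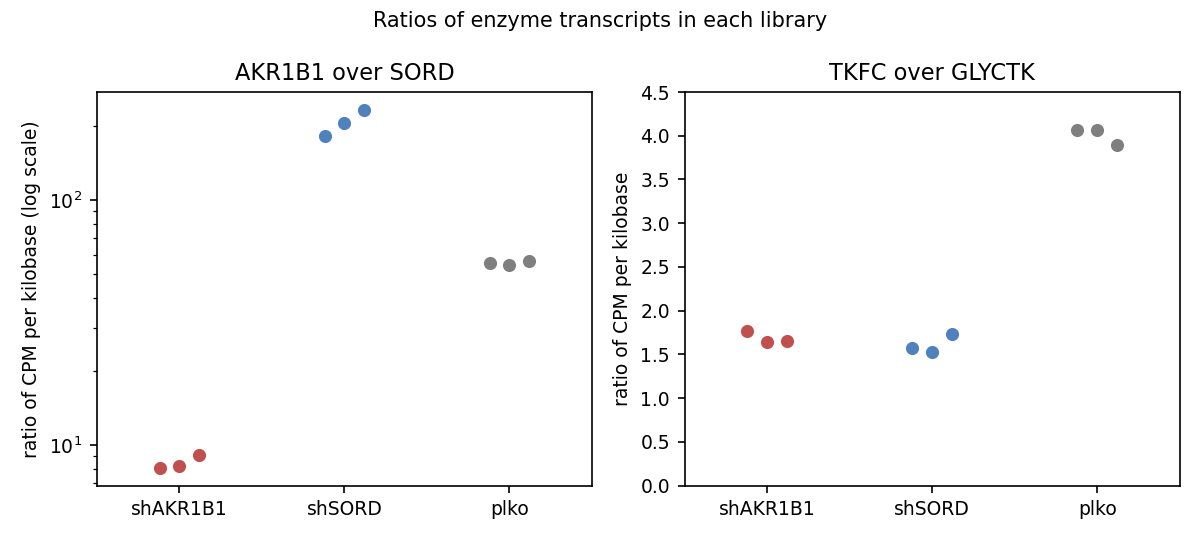
Ratio of CPM per kilobase of AKR1B1 over SORD (left, log axis) and of TKFC over GLYCTK (right, linear axis from 0) in each library of shAKR1B1, shSORD and plko; each point is 1 library. AKR1B1 over SORD lies at 8.08 to 9.08 in shAKR1B1, 183 to 234 in shSORD and 54.5 to 56.4 in plko, and TKFC over GLYCTK is lower in all knockdown libraries than in plko.

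Genes around these enzymes were read from 5 lists. The first held 26 genes of hexose and triose handling, of which 19 were tested. Besides steps into glycolysis it takes in fructose bisphosphatases, aldehyde dehydrogenases and glycerol 3-phosphate dehydrogenases, so its counts do not describe glycolytic entry alone. With shAKR1B1, 9 of the 19 rose and 8 fell (median log2 fold change 0.13), and with shSORD 5 rose and 9 fell (median -0.07). Among all tested genes 27.8% rose and 29.6% fell with shAKR1B1, and 27.5% rose and 29.0% fell with shSORD, with medians of -0.00, and the counts of every list below stand beside these same shares. GCKR, the liver regulator of glucokinase whose action fructose phosphates modulate, had the largest rise of those named in this list, at log2 fold changes of 2.51 with shAKR1B1 and 1.62 with shSORD (edgeR adjusted p 1.84e-08 and 4.38e-06). It remained a low transcript, with 188 to 219 counts in shAKR1B1, 109 to 115 in shSORD and 22 to 45 in plko. GPD1, which makes glycerol 3-phosphate, and GK, glycerol kinase, rose in both as well, GPD1 by 1.41 and 0.83 and GK by 0.98 and 0.55 on the log2 scale with shAKR1B1 and shSORD.

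Among the hexokinases, HK1 was lower with shSORD (log2 fold change -0.26, edgeR adjusted p 0.000687) and was not called with shAKR1B1 (-0.04, edgeR adjusted p 0.543). HK2 fell in both, by 0.62 with shAKR1B1 and by 1.35 with shSORD on the log2 scale, at 44 to 51, 27 to 33 and 64 to 79 counts in shAKR1B1, shSORD and plko. HKDC1, named after its values were seen, went the other way and rose in both. Its log2 fold changes were 0.21 with shAKR1B1 (edgeR adjusted p 0.0173) and 0.48 with shSORD (edgeR adjusted p 2.7e-05). It averaged 119, 145 and 103 CPM in shAKR1B1, shSORD and plko, against 86.9, 74.8 and 89.3 CPM for HK1. ALDOA, the aldolase of glycolysis, fell by 0.32 with shAKR1B1 and by 0.59 with shSORD, at much higher levels: 1383 ± 64.8 CPM in shAKR1B1, 1154 ± 79.9 in shSORD and 1732 ± 66.4 in plko (SD, n = 3 each). ALDOC, a relative, fell with shSORD (-0.42, edgeR adjusted p 0.0044) and was at 0.13 with shAKR1B1 (edgeR adjusted p 0.300). The fructose transporter SLC2A5 had 0 to 1 counts in shAKR1B1, 1 to 7 in shSORD and 1 to 4 in plko, and was not tested. Between the knockdowns, 11 of the 19 were higher in shAKR1B1 and 2 lower (median 0.23), where 15.5% of all tested genes were higher and 15.1% lower.

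**Figure D5:**
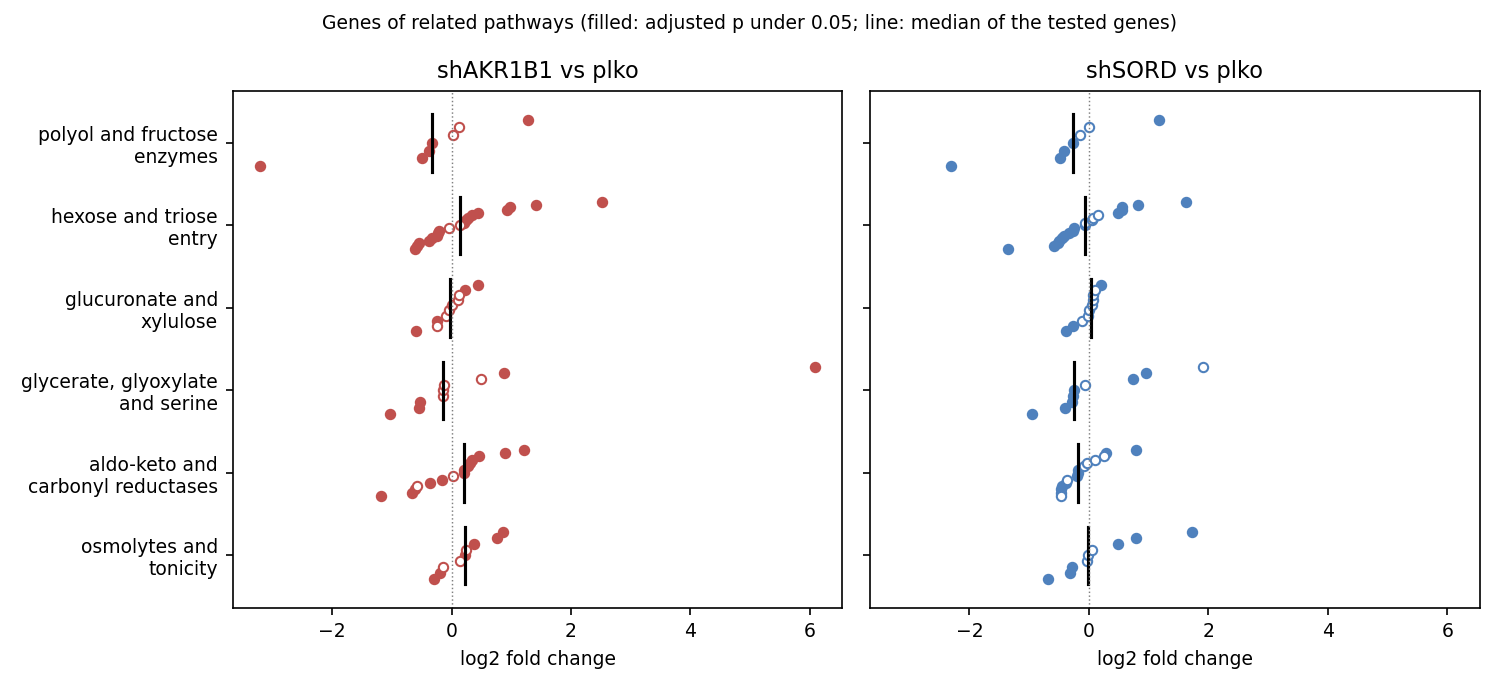
Log2 fold change (x axis) of each tested gene of the 7 enzymes and of 5 related lists (rows) for shAKR1B1 against plko (left) and shSORD against plko (right); filled points have an edgeR adjusted p under 0.05 and the black line is the median of the list. Medians of the 5 lists lie between -0.25 and 0.22, and the point at 6.08 with shAKR1B1 is HAO1, which had 1 count in each plko library.

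The glucuronate and xylulose list, to which DCXR's reaction belongs, had 12 genes with 10 tested. With shAKR1B1, 2 rose and 2 fell (median -0.02), and with shSORD 1 rose and 2 fell (median 0.03). Of all tested genes, 27.8% and 27.5% rose and 29.6% and 29.0% fell with shAKR1B1 and shSORD. In a list of 10 tested genes such counts do not set the list apart from these shares. UGP2, which makes UDP-glucose, was lower with shAKR1B1 (log2 fold change -0.60, edgeR adjusted p 4.76e-06) and higher with shSORD (0.21, 0.0209), the shSORD call being lost without plko library 1 (0.0968) or plko library 2 (0.0544). CRYL1, gulonate dehydrogenase, which precedes DCXR, was higher with shAKR1B1 (0.45, edgeR adjusted p 0.000161) and not called with shSORD (0.11, 0.252). UGDH, which makes UDP-glucuronate, was likewise higher with shAKR1B1 (0.23, edgeR adjusted p 0.00203) and not called with shSORD (-0.02, 0.790). XYLB, xylulokinase, which acts on the D-xylulose that SORD can make from DCXR's xylitol, was not called in either (-0.10 and 0.07 with shAKR1B1 and shSORD). RPIA, of the pentose phosphate pathway, fell in both (-0.24 and -0.26), and SHPK, which phosphorylates sedoheptulose, was called with shSORD (-0.38, edgeR adjusted p 0.0119), a call lost without plko library 3 (0.0925) or shSORD library 1 (0.0624). With shAKR1B1, SHPK was at -0.24 (edgeR adjusted p 0.0896) and was called without plko library 1 (-0.33, 0.0433). Leaving out a library moved the list's count of rises to between 2 and 4 with shAKR1B1 (4 without shSORD library 3, and also 4 with upper quartile scaling and in a fit of the 2 groups alone) and between 0 and 3 with shSORD (0 without plko library 1 or 2, 3 without shSORD library 3). Directly between the knockdowns, 3 of the 10 were higher in shAKR1B1 (UGDH and CRYL1 among them) and 1, UGP2, was lower (-0.81, edgeR adjusted p 6.88e-07). Of all tested genes, 15.5% were higher and 15.1% lower in shAKR1B1 than in shSORD.

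Around glycerate, GLYCTK's substrate, the list of glycerate, glyoxylate and serine enzymes had 10 genes with 9 tested. With shAKR1B1, 2 rose and 3 fell (median -0.14), and with shSORD 2 rose and 5 fell (median -0.25), against the same 27.8% and 29.6% of all tested genes with shAKR1B1 and 27.5% and 29.0% with shSORD. Only 1 rose with shSORD without plko library 2. With shAKR1B1, 6 fell without shSORD library 2 and in a fit of the 2 groups alone. PSAT1 and PHGDH, which lead from 3-phosphoglycerate towards serine, fell in both knockdowns, PSAT1 by 1.03 and 0.96, PHGDH by 0.54 and 0.29 and with them SHMT2, the mitochondrial serine hydroxymethyltransferase, by 0.54 and 0.40 on the log2 scale with shAKR1B1 and shSORD. PSPH, the last enzyme of that route and named after its values were seen, was not called in either (-0.13 and -0.07; edgeR adjusted p 0.0873 and 0.374). PSAT1 averaged 102 ± 11.4 CPM in shAKR1B1, 108 ± 18.2 CPM in shSORD and 209 ± 4.88 CPM in plko (SD, n = 3 each). GRHPR, which reduces glyoxylate and hydroxypyruvate, was called lower with shSORD (-0.25, edgeR adjusted p 0.00771; 0.0510 with upper quartile scaling) and not with shAKR1B1 (-0.15, 0.0912), where it was called without an expression filter (0.0389), in a fit of the 2 groups alone (0.0143) and without shSORD library 2 (0.0341) or 3 (0.0380). HOGA1, of mitochondrial hydroxyproline breakdown, rose in both, at log2 fold changes of 0.87 and 0.95 with shAKR1B1 and shSORD. HAO1, the peroxisomal glycolate oxidase of liver, was singled out after its values were seen: it had 65 to 86 counts in shAKR1B1, 2 to 8 in shSORD and 1 in each plko library. Only its shAKR1B1 libraries gave it enough counts to be tested. A call of HAO1 as higher in shAKR1B1 was thus favoured in advance, and its place in the counts of this list is no independent support. In shAKR1B1 against shSORD, 1 of the 9 was higher (HAO1) and 1 lower (PHGDH, -0.25), the call of PHGDH being lost without shAKR1B1 library 1 (edgeR adjusted p 0.0955). The shares of all tested genes in that comparison were 15.5% higher and 15.1% lower.

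Of 16 aldo-keto and carbonyl reductases, 15 were tested. With shAKR1B1, 8 rose and 5 fell (median 0.21), and with shSORD 2 rose and 7 fell (median -0.18), where 27.8% and 27.5% of all tested genes rose and 29.6% and 29.0% fell with shAKR1B1 and shSORD. With shSORD, 4 rose under upper quartile scaling and under a stricter filter, and with shAKR1B1 3 fell under the stricter filter. AKR1C1 and AKR1C4, hydroxysteroid reductases, are members of a family of near copies, so their split is uncertain. AKR1C1 rose in both (log2 fold changes 0.89 and 0.79 with shAKR1B1 and shSORD), whereas AKR1C4 was called higher with shAKR1B1 (1.21, edgeR adjusted p 3.51e-06) and not with shSORD (-0.03, 0.894). AKR1B15, a close copy of AKR1B10, had log2 fold changes of 0.31 with shAKR1B1 and -0.18 with shSORD, the shSORD call being lost with upper quartile scaling (edgeR adjusted p 0.111) and without plko library 1 (0.0644). The carbonyl reductase CBR3 fell in both (-0.67 and -0.38), CBR1 fell with shSORD (-0.47) and HSD17B10, of mitochondria, fell in both (-0.37 and -0.47). CBR1 was also called with shAKR1B1 (-0.16, edgeR adjusted p 0.0309), but not with upper quartile scaling, a stricter filter, or without plko library 1 or 3, any 1 shAKR1B1 library, or shSORD library 1 (edgeR adjusted p 0.0649 to 0.182). Between the knockdowns 7 of the 15 were higher in shAKR1B1 and 1 lower, where 15.5% of all tested genes were higher and 15.1% lower. AKR1B10 was 1.55-fold higher in shAKR1B1 (edgeR adjusted p 4.24e-08). The lower gene was CBR3 (-0.29), whose call was lost without shAKR1B1 library 2 or 3 or shSORD library 2 (edgeR adjusted p 0.0599 to 0.0629).

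Sorbitol is an osmolyte, and the list of osmolyte and tonicity genes had 11 genes with 9 tested. With shAKR1B1, 4 rose and 2 fell (median 0.22), and with shSORD 3 rose and 3 fell (median -0.01), beside 27.8% and 27.5% of all tested genes that rose and 29.6% and 29.0% that fell with shAKR1B1 and shSORD. NFAT5, the transcription factor of the tonicity response and a known activator of AKR1B1, was called higher with shAKR1B1 (log2 fold change 0.38, edgeR adjusted p 0.00843) and not with shSORD (-0.01, 0.921). GDPD5, which breaks down glycerophosphocholine, rose in both, by 0.85 with shAKR1B1 and by 1.73 with shSORD. HSPA1B, a heat shock protein with a near-identical copy and so uncertain, rose in both (0.76 and 0.79). The taurine transporter SLC6A6 fell in both (-0.19 and -0.68), and the amino acid transporter SLC38A2 was called lower with shSORD (-0.29, edgeR adjusted p 0.0391). That call was lost with upper quartile scaling, a stricter filter, the 2 groups alone, or without any 1 plko library, shAKR1B1 library 3 or shSORD library 2 (edgeR adjusted p 0.0513 to 0.104). SLC5A3, the inositol transporter, was listed at 0 in every library. Whether its transcript was absent or its reads were not assigned to it was not tested. In shAKR1B1 against shSORD, NFAT5 (0.39, edgeR adjusted p 0.0134; 0.0662 without shAKR1B1 library 1), SLC6A6 and SLC38A2 were higher, and 2 were lower, among them GDPD5 (-0.87, edgeR adjusted p 7.13e-07). The count of lower genes was 1 without shAKR1B1 library 1 or 3. Among all tested genes 15.5% were higher and 15.1% lower between the knockdowns.

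Likeness across the 9 libraries was measured as the root-mean-square distance between log2(CPM + 0.5) profiles, each taken relative to its own mean, over 12072 protein-coding genes with a mean of at least 1 CPM. AKR1B1 and SORD had no gene within a distance of 0.1, and the nearest were PMEPA1 for AKR1B1 (0.198) and HHIP for SORD (0.111). PMEPA1 stood at 38.7 CPM in shAKR1B1, 196 CPM in shSORD and 309 CPM in plko, and HHIP at 1.44, 0.0835 and 2.63 CPM in the same order, its shSORD level lying under the added 0.5. GLYCTK had 8 genes within 0.1, the nearest being MYRF (0.0689), ERBB2 (0.0720) and RBPMS (0.0753). MYRF averaged 289, 291 and 126 CPM, ERBB2 198, 176 and 83.7 CPM and RBPMS 99.2, 89.6 and 41.2 CPM in shAKR1B1, shSORD and plko. The 4 others had common profiles, with 614 genes within 0.1 of KHK, 641 of TKFC, 385 of DCXR and 754 of AKR1A1. Their nearest were ANAPC2 for KHK (0.0290), ECHDC3 for TKFC (0.0223), PELP1 for DCXR (0.0289) and RNF41 for AKR1A1 (0.0373). With 2 in place of 0.5, an alternative added after seeing the data, 13 of the 21 nearest genes (3 for each enzyme) were the same, but only 1 of the 3 for SORD, whose nearest was then CTSC, and 0 of the 3 for GLYCTK, whose nearest was then NOTCH3.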

How the data were processed

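The authors deposited raw counts, whole reads per Ensembl gene ID with no scaling, for 9 libraries. Extraction used Qiazol and miRNeasy columns, and the library kit was TruSeq stranded mRNA, per the labels' protocols. Tools and build listed in the submitters' processing notes are STAR 2.5.2b, cutadapt 1.9.1, featureCounts 1.5.1 (Subread), DESeq2 1.12.3 and GRCh37. Which annotation release, strand option and rule for multi-mapping reads were used is not given in the sources used here.

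The enzymes, gene lists and tests were chosen with earlier results of these data known. Symbols were matched for 51996 of 57905 gene IDs. Tests used edgeR 4.0.16 under R 4.3.3, with TMM factors, its standard filter on low counts (16916 genes kept), a quasi-likelihood model of all 9 libraries with a mean for each group, and Benjamini-Hochberg adjustment over all tested genes in each of 3 comparisons. A gene was called at an adjusted p under 0.05, and "rose", "fell", "higher" and "lower" as test results refer to calls. Replicates varied by 6.59% (common biological coefficient of variation). Each SE was derived from the log2 fold change and its F statistic, and intervals are 95%. The fit was also run on simulated counts with the same spread for every gene and few genes changed. These data differ in both respects, so that run is not used as support here. CPM was computed here from the deposited counts and TMM-scaled library sizes. Lengths, exon overlaps and transcripts came from GENCODE 29 and promoters from RefSeq, both on GRCh38, another build than the counts.

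Genes named besides the 7 enzymes were a fixed set of neighbours (AKR1B10, SORD2P, ALDOA, HK1, HK2, SLC2A5, UGDH, CRYL1, XYLB, GRHPR, NFAT5 and SLC5A3), the 3 largest called changes of each list and comparison with a mean of at least 50 counts, genes whose exons overlap an enzyme's, and the nearest by profile. HAO1, HKDC1 and PSPH fall outside this rule and were chosen after their values were seen. A gene of the fixed set that is withheld is not reported here. PECAM1 matched no single gene ID and was left out of the markers.

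Same-numbered libraries were checked for pairing by the correlation of their deviations from the group means. With plko the correlations were -0.03 to 0.03, so numbers pair nothing there. Between shAKR1B1 and shSORD they were 0.102, 0.193 and 0.144, above those of unequal numbers (-0.18 to 0.03), so there same-numbered libraries deviated together to a small degree. Deviations are centred on the group mean, so positive values for equal numbers lower those for unequal ones, and the contrast does not establish pairing. All values are from the fit without a block unless a block is named; the fit with the number as a block was an alternative and is given beside a result between the knockdowns where it changes a call. The labels do not say what a shared number means. Alternatives were other scaling factors, DESeq2 1.42.0, no filter and a stricter filter (1 CPM), the block, the 2 compared groups alone, each library left out in turn, another length measure and another pseudocount.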

Additional observations from a re-analysis of the deposited data

How the results depend on the processing

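Of the enzymes' values across alternatives, 320 kept their direction and side of the threshold, 10 gained a call, 5 lost one and 8 changed sign. The cause was not tested. With shAKR1B1, 2 enzymes rose under upper quartile scaling, a stricter filter and a fit of the 2 groups alone (1 to 2 with a library left out). Between shAKR1B1 and shSORD, 2 enzymes were higher with the library number as a block (1 to 3 with a library left out) and 1 to 2 lower with a library left out; the block changed no other call of an enzyme and, of the other named genes, 1 (GRHPR with shAKR1B1). A block fitted on those 6 libraries alone, added after seeing the data, gave TKFC an edgeR adjusted p of 0.0560 and left 1 enzyme higher. The 5 lists together had 5 to 11 genes lower in shAKR1B1 than in shSORD with a library left out, 11 without shSORD library 3. Over all tested genes 15.1% were lower in the main fit. With a library left out, 1906 to 3165 genes were lower, 3165 of them without shSORD library 3.

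Sign changes all concerned uncalled values. Upper quartile scaling turned SORD2P (0.0079) and HK1 (0.021) with shAKR1B1. With shSORD against plko, AKR1A1 turned to 0.0013 with DESeq2 size factors, 0.066 with upper quartile scaling, 0.032 with the stricter filter and 0.013 in the fit of the 2 groups alone; UGDH to 0.053, 0.019 and 0.0011 and NFAT5 to 0.057, 0.023 and 0.0047 under the last 3 of these; and AKR1C4 to 0.045 and 0.011 under upper quartile scaling and the stricter filter. With a library left out, these spanned -0.037 to 0.049 (AKR1A1), -0.043 to 0.030 (UGDH), -0.17 to 0.12 (NFAT5) and -0.082 to 0.041 (AKR1C4). In shAKR1B1 against shSORD the ranges were -0.024 to 0.20 for GLYCTK, -0.024 to 0.052 for RPIA, -0.18 to 0.061 for PSAT1, -0.17 to 0.072 for HOGA1 and -0.13 to 0.033 for HSPA1B.

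With the longest transcript as length, plko levels per kilobase were 734 CPM for AKR1B1, 36.2 for AKR1A1, 32.1 for DCXR, 15.4 for TKFC, 9.57 for KHK, 8.75 for SORD and 3.21 for GLYCTK, which puts AKR1A1 before DCXR. With a pseudocount of 2, added after seeing the data, 13 of the 21 nearest genes by profile were shared. GLYCTK, at 246 to 262 counts per plko library, and SORD in shSORD rest on the fewest counts of the enzymes.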
